A study of Mus musculus with 5 samples.

Results

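B16F10 cells, a pigmented mouse melanoma line, were made to express Pparg from a lentivirus, and their RNA was compared with that of cells infected with a lentivirus that carried the empty expression vector. Both cultures were collected on day 8. The comparison covers the genes with an FPKM (reads scaled by gene length and by library size) of at least 1 in either of these 2 libraries, which are 11420 of the 54699 genes in the deposited table. These are 2 of the 5 libraries of a study that also forced expression of Myod1 (day 8) and knocked down Setdb1 (day 7) in the same line. The fifth library, from wild-type cells with the empty knockdown vector on day 7, served as a second control. All cultures grew in DMEM with 10% serum, and the labels name neither a ligand of the receptor nor the promoter that drove the transgene. Each group had 1 library, so no difference below has a replicate check and no test between conditions was possible.

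PPARγ, the product of Pparg, is a nuclear receptor that binds DNA as a partner of a retinoid X receptor and is activated by fatty acids and their derivatives. It is the central regulator of fat-cell formation, and its direct targets include genes for fatty acid uptake and binding, for the lipid droplet and for fatty acid oxidation. Melanoma cells such as B16F10 instead express the melanocyte programme, in which the factor MITF drives the enzymes and structural proteins of the melanosome, the organelle that makes melanin.

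The transgene was checked first. Pparg (ENSMUSG00000000440, GRCm38 chromosome 6, 115360951 to 115490399) had 2514 reads in the Pparg expression library, an FPKM of 44.4, and 0 reads in each of the other 4 libraries. Against a floor of 3 reads in the control this was at least 714-fold higher. The table has 1 value per gene, so RNA from the lentivirus and RNA from the endogenous locus cannot be told apart. Fabp4 (chromosome 3, 10204088 to 10208576) encodes the fatty acid-binding protein of fat cells. It had 13207 reads (FPKM 153) with Pparg expression and 0 reads in each of the other 4 libraries, at least 3752-fold higher than the control. Cd36 (chromosome 5, 17781690 to 17888801), a fatty acid transporter, had 10058 reads (FPKM 146) against 1 read in the control, a ratio of 8572 with a counting interval of 1538 to 338607. Pmel, which forms the fibrils of the melanosome, had an FPKM of 536 with Pparg expression against 3014 in the control and 2993 in the second control.

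Libraries held 16214802 to 18300670 reads assigned to genes, recovered from the deposited values. Reads were found for 19163 genes with Pparg expression, against 17916 and 17547 in the control and the second control, and the part of this in the counts below was not tested. Intervals below are at 95%, Wilson intervals for an FPKM and exact intervals for a ratio of 2 libraries, and they cover counting error only. Log2 ratios are log2((FPKM + 1) / (FPKM + 1)), Pparg expression over the empty expression vector unless another control is named, and they understate the difference of genes with low values. Folds without this mark are plain ratios of FPKM. "At least 2-fold" always refers to the log2 ratio with the added 1. In bulk RNA, fewer cells that express a gene and less RNA of it per cell cannot be told apart.

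At least 2-fold higher with Pparg expression were 542 genes (4.75% of those compared) and at least 2-fold lower were 295 (2.58%). Between the 2 controls, which differ in vector and day, 158 genes (1.42%) passed this limit on the higher side and 185 (1.66%) on the lower side, taken as knockdown vector over expression vector. The imbalance between higher and lower grew with size. At a 4-fold limit 91 genes were higher and 23 lower, against 18 and 18 between the controls. At an 8-fold limit there were 25 higher and 0 lower, and at 32-fold 3 higher, which were Fabp4, Cd36 and Pparg. Against the second control alone 709 genes (6.2%) were higher and 310 (2.71%) lower. Both controls together left 429 higher (3.76%) and 109 lower (0.954%), so the lower side shrank more when a second control was required. The median log2 ratio of all genes compared was -0.05.

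Of the 542 higher genes, 237 had an FPKM under 1 in the control and entered the comparison only through the Pparg expression library. Among the 10753 genes with a control FPKM of at least 1, 305 were higher. Of the 429 genes higher against both controls, 309 had their highest level of all 5 libraries with Pparg expression, and 181 were at least 2-fold above each of the other 4. Of the 109 lower against both, 66 had their lowest level with Pparg expression, and 18 were at least 2-fold below each of the others. Just inside the limit lay Sema3e (FPKM 1.95 against 0.475) and Lamb2 (17.8 against 36.6), and just outside it Pigv (4.48 against 1.74) and Hspa5 (136 against 272). Log2 ratios were related to the GC content of the longest transcript, with a Spearman rho of 0.19 across 11335 genes. It was 0.35 against the empty knockdown vector and -0.28 between the 2 controls. Genes are not independent replicates, and the part of GC content in any single difference was not tested.

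**Figure D1:**
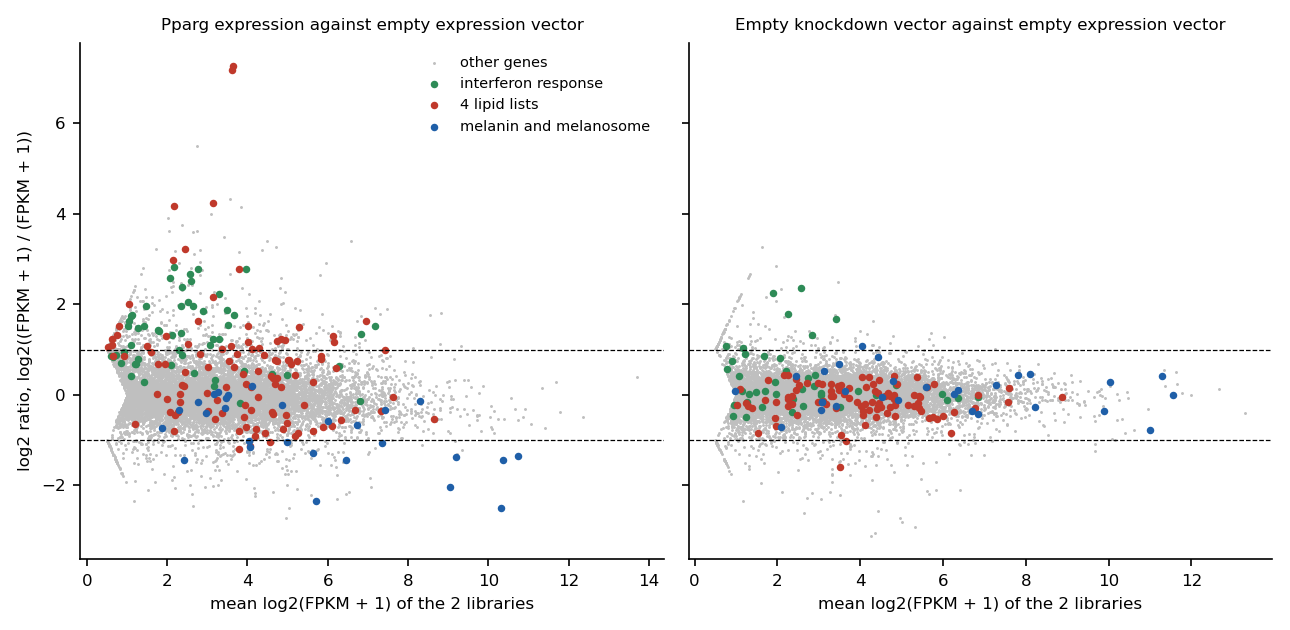
Each point is a gene; the horizontal axis is its mean log2(FPKM + 1) in 2 libraries and the vertical axis its log2 ratio, with dashed lines at 2-fold. On the left is Pparg expression against the empty expression vector. There, genes of the 4 lipid lists (uptake, droplet, oxidation and synthesis) in red lie mostly above 0 apart from a lower group. Interferon response genes in green lie mostly above 0 and melanosome genes in blue mostly below it. On the right (empty knockdown vector against empty expression vector) the red and blue points centre near 0 while a few green points lie above 1.

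Stretches of promoter are shown for genes of the 2 groups in which a short motif was frequent. They come from the RefSeq promoter table (GRCm38.p6), which gives the 250 bases before and 50 after the start of 27025 genes, and each is written 5′ to 3′ on the strand of its gene. Of the 11420 genes compared 8301 matched an entry; Fabp4, Pmel and Angptl4 did not. Interferon response genes are known to carry the interferon-stimulated response element, searched here on both strands by its core, GAAA followed by any 2 bases and again GAAA. This core was present in the promoter of 15 of the 24 interferon response genes that were at least 2-fold higher and have an entry (62.5%). It was in 3.99% of all 27025 genes and in 3.40% of the 8301 genes compared. Of the 296 genes of any kind with an entry that were higher against both controls, 28 had it (9.46%). The share among listed genes that were not higher was not taken. Capitals mark the bases of the core, including overlapping matches, in 4 of the genes that differed most. Each stretch ends within the 250 bases before the start.
Isg15 (chr4:156200857-156200914, minus strand): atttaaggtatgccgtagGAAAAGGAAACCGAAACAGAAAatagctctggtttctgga
Ifit1 (chr19:34640767-34640831, plus strand): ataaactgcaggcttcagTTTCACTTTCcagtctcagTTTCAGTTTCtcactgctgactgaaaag
Gbp2 (chr3:142620586-142620631, plus strand): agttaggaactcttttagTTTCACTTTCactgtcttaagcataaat
Irgm2 (chr11:58214895-58214940, plus strand): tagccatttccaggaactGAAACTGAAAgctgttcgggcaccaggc

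Pigment genes are known for the M-box, the extended site TCATGTG that MITF binds. It was present on either strand in the promoter of 4 of the 9 melanosome genes that were at least 2-fold lower and have an entry (44.4%), in 8 of the 58 genes of any kind with an entry that were lower against both controls (13.8%) and in 4.31% of all genes. Capitals mark the M-box in the promoters of Tyr, Tyrp1 and Dct, the 3 enzymes of melanin synthesis, and of Tspan10, which was among the 20 lowest genes. The Dct promoter holds 2 matches, and the stretch with the match nearer to the start is shown.
Tyr (chr7:87493513-87493552, minus strand): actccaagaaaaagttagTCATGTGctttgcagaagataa
Tyrp1 (chr4:80834148-80834190, plus strand): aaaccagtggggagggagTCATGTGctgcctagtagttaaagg
Dct (chr14:118052373-118052415, minus strand): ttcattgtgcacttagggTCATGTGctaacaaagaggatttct
Tspan10 (chr11:120442592-120442630, plus strand): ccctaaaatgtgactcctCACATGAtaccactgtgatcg

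The receptor's own type of site, a direct repeat with a 1-base spacer, was searched on both strands as the half-site AGGNCA, any 1 base, and AGGNCA again. It was in the promoter of 0 of the 24 genes of the 4 lipid lists that were at least 2-fold higher and have an entry, and in 0.451% of all genes. A looser repeat with the half-site AGGNNA was in 2 of the same 24 (8.33%) and in 3.30% of all genes. A 0 says only that these letters are not in the 300-base windows. These 4 spellings are described out of 11 searched, which overlap; the others were stricter or longer forms of the repeat and of the interferon core, the site TTCNNNGAA, and the E-boxes CATGTG, TCACNTGA and ATCACGTG. A match is a description of the sequence, not of binding.

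Among the receptors and regulators of fat-cell formation, 5 of the 23 compared were at least 2-fold higher and 1 was lower (4.75% and 2.58% of all genes were), and the median log2 ratio was 0.12. Of the 23, 4 entered only through the Pparg expression library, Pparg and Cebpd among them, and 3 of the other 19 were higher. Apart from Pparg itself the higher genes were Cebpd, Zfp423, Stat5a and Cebpb. Cebpd, an early factor of fat-cell formation, had an FPKM of 12.4 with Pparg expression, 0.768 in the control and 0.543 in the second control, a 16.2-fold ratio to the control (interval 12.1 to 22.2). Its partner Cebpb stood at 42.5 against 19.2 and 8.03, so the controls themselves differed. Zfp423, a determinant of pre-fat cells, stood at 6.56 against 1.14 and 2.30, and all 5 regulators were also at least 2-fold higher than the second control. Cebpa, which acts with PPARγ in mature fat cells, had 0 reads in the Pparg expression library and in both controls. The dimer partners Rxra (44.2 against 40.6) and Rxrb (26.4 against 23.9) and the coactivator Ppargc1a (11.3 against 12.97) were near the control. Prdm16, a factor of brown fat, was lower than the control, at 9.30 against 24.8, and missed the limit against the second control (17.2). Srebf1, which drives fatty acid synthesis, lay just under the limit at 75.6 against 37.7 (log2 ratio 0.98).

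Among genes of fatty acid uptake, binding and activation, 5 of the 18 compared were at least 2-fold higher, all of them against both controls, and 1 was lower. Of all genes 4.75% were higher, 3.76% against both controls, and 2.58% lower. Of the 5, Fabp4, Cd36, Angptl4 and Aqp7 had a control FPKM under 1 and so entered only because they were high with Pparg expression; of the 14 genes at 1 or more in the control, 1 was higher. The median log2 ratio of the list was 0.11, against -0.05 for all genes. After Fabp4 and Cd36, Fabp3, the fatty acid-binding protein of heart and muscle, had an FPKM of 37.6 against 1.04 and 1.24 (36.1-fold, interval 21.3 to 66.4). It reached 536 in the Myod1 expression library, so that its level with Pparg expression was not the highest. Angptl4, a secreted inhibitor of lipoprotein lipase, had 1146 reads against 3 in the control and 2 in the second control, a ratio of 326 (interval 111 to 1581). Aqp7, the glycerol channel of fat cells, had 105 reads against 1 and 2. The acyl-CoA-binding protein Dbi stood at 240 against 120, on the limit. Lpl itself had 0 reads in the Pparg expression library and in both controls. Acsl3, an acyl-CoA synthetase, was lower at 15.3 against 32.6 but missed the limit against the second control (23.4), and Fabp5, the skin form, was at 52.8 against 86.2.

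Of the lipid droplet and triglyceride genes, 9 of the 24 compared were at least 2-fold higher (4.75% of all genes were) and 0 lower, with a median log2 ratio of 0.86. Of the 19 with a control FPKM of at least 1, 6 were higher. Lipe, the hormone-sensitive lipase, had an FPKM of 15.6 with Pparg expression, 0.770 in the control, 0.589 in the second control, 1.19 with Myod1 expression and 2.50 with Setdb1 knockdown. The Pparg expression library was the highest of the 5, 20.2-fold above the control (interval 16.01 to 25.9). Mogat1, an enzyme of triglyceride synthesis, stood at 35.0 against 4.24 and 3.42. Plin2, the droplet coat protein of most cell types, was already high in the control (69.1) and reached 218. The coat proteins of fat cells were lower in level: Plin4 had 348 reads against 3 (FPKM 3.14) and Plin1 111 reads against 4 (FPKM 1.25). G0s2, an inhibitor of lipolysis, stood at 11.02 against 2.88, and Fitm2, which partitions fat into droplets, at 26.3 against 8.46. Dgat1, the last enzyme of triglyceride synthesis, stood at 42.5 against 17.5. Bscl2, seipin, was at 7.38 against 2.85 but missed the limit against the second control (4.24). Cidec, which fuses droplets in fat cells, reached an FPKM of only 0.253 and Cidea had 0 reads.

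In fatty acid oxidation and ketone synthesis 16 of the 36 genes compared were at least 2-fold higher (4.75% of all genes were). Against both controls 13 were higher (3.76% of all genes). Lower were 0 (2.58% of all genes), and 35 of 36 had a ratio above 0 (45.2% of all genes did). The median log2 ratio was 0.86, and 1.06 against the second control. Of the 32 with a control FPKM of at least 1, 12 were higher. Of the acyl-CoA dehydrogenases, Acadvl was at 64.6 against 22.2, Acadm at 23.4 against 9.84 and Acads at 109 against 43.4, whereas Acadl, at 90.6 against 59.4, was short of the limit. Later steps of the cycle were higher too, with Hadhb at 45.6 against 18.9 and Acaa2 at 106 against 46.8, as were the electron carriers Etfb (39.6 against 16.7) and Etfdh (16.7 against 7.32). Pex11a, a peroxisome division protein, had the highest log2 ratio of the list, at 17.6 against 3.15 (5.58-fold, interval 4.73 to 6.61). Pdk2, which restrains the use of glucose, stood at 5.15 against 1.51. Cpt1a, the entry step of fatty acids into mitochondria, was at 27.3 against 20.8, a log2 ratio of 0.37. Pdk4 and Cpt1b, known targets in other tissues, had 0 reads. In the Myod1 expression library, which shares the control, Acadvl (99.2), Acads (111) and Acaa2 (106) were at similar or higher levels, so these genes were not high with Pparg alone.

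**Figure D2:**
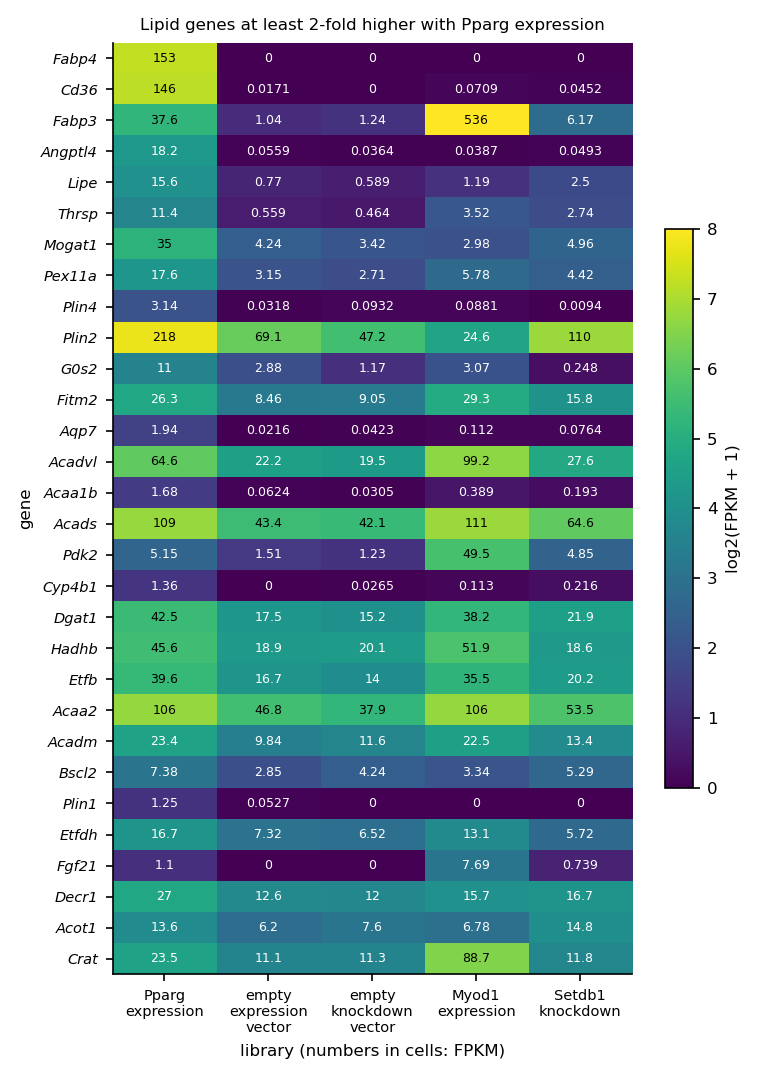
Rows are genes of the uptake, droplet, oxidation and synthesis lists, all but 1 of those that were at least 2-fold higher with Pparg expression, in the order of the log2 ratio, and columns are the 5 libraries; colour is log2(FPKM + 1) and the number in each cell the FPKM. Fabp4, Cd36 and Angptl4 are near 0 outside the Pparg expression library, whereas Fabp3, Acadvl, Pdk2 and Crat are higher still in the Myod1 expression library.

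Of the genes of fatty acid and sterol synthesis 1 of the 31 compared was at least 2-fold higher (3.23%), 2 were lower (6.45%), 1 of them against both controls, and 26 of 31 had a ratio below 0 (54.8% of all genes did). The shares called lie near the 4.75% and 2.58% of all genes, and the median log2 ratio was -0.45. The higher gene was Thrsp, a lipogenic nuclear protein, at 11.4 against 0.559 and 0.464 (20.4-fold, interval 13.04 to 33.7). Thrsp entered only through the Pparg expression library, and of the 30 genes with a control FPKM of at least 1, 0 were higher. Among the lower genes, Fdft1, squalene synthase, stood at 10.3 against 23.8 and missed the limit against the second control (16.7). Sqle, squalene epoxidase, stood at 15.2 against 28.1 and 26.5, short of the limit. Me1, which supplies NADPH for lipogenesis, was at 40.9 against 23.4.

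Products and surface proteins of the mature fat cell were few among the genes compared. Of 23 listed, 7 were compared, 2 were at least 2-fold higher and 0 lower (4.75% and 2.58% of all genes were). Agt, angiotensinogen, stood at 171 against 21.6 and 20.3 (7.90-fold, interval 7.29 to 8.57) and was between 20.3 and 26.0 in the other 4 libraries. Irs2, an adaptor of the insulin receptor, stood at 7.15 against 2.45. Adipoq, the hormone adiponectin, reached an FPKM of 0.0756, and Cfd, adipsin, 0.226 against 0 in both controls. Slc2a4, the insulin-responsive glucose transporter, was at 2.34 against 1.795. Of brown and beige fat genes 5 of 19 were compared, 2 were higher and 1, Prdm16, was lower, to be read against the same shares of all genes. The higher ones were Tnfrsf9, at 10.9 against 2.92, and Otop1, with 85 reads against 0 in each of the other libraries. Ucp1, the uncoupling protein of brown fat, had 0 reads. Fabp4 and Cd36 were thus high, and the fat-cell genes Lipe, Aqp7, Plin1 and Plin4 were also above the control. Adipoq, Lpl, Cidec, Cfd and Ucp1 were at or near 0.

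Pigment genes were lower. Of the 28 melanin and melanosome genes compared, 13 were at least 2-fold lower (2.58% of all genes were), 11 of them against both controls (0.954% of all genes), and 0 were higher. The median log2 ratio was -0.70, and it was 0.05 between the controls. The summed FPKM of the whole list was 3985 with Pparg expression, 11424 in the control and 11051 in the second control. It was 4710 with Myod1 expression and 10934 with Setdb1 knockdown, so the lower level was not seen with Pparg alone. The structural gene Pmel was 5.62-fold lower than the control (interval 5.55 to 5.70). Dct, which converts dopachrome, had an FPKM of 261 with Pparg expression, 1067 in the control, 835 in the second control, 292 with Myod1 expression and 906 with Setdb1 knockdown. Tyrp1 stood at 802 against 2172 and 2885, and Tyr, the rate-limiting enzyme, at 30.6 against 76.2 and 76.9. In these 3 genes both controls lay above the Pparg expression library. Car14, a carbonic anhydrase, was 5.24-fold lower, at 22.2 against 116. The antigen gene Mlana (365 against 947) and the transporters Slc24a5 (52.4 against 143), Slc45a2 (112 against 234) and Oca2 (2.24 against 7.80) were lower as well. Gpnmb, a relative of Pmel, was at 1067 against 2711, yet the second control was at 1573, so the limit was passed against the expression vector only. Transport genes Rab27a (21.2 against 44.5) and Myo5a (10.6 against 22.5) were near the limit. Genes of organelle biogenesis shared by other tissues, Hps1 (8.82 against 8.35), Hps4 (10.4 against 10.5) and Hps6 (8.05 against 7.92), were close to the control.

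**Figure D3:**
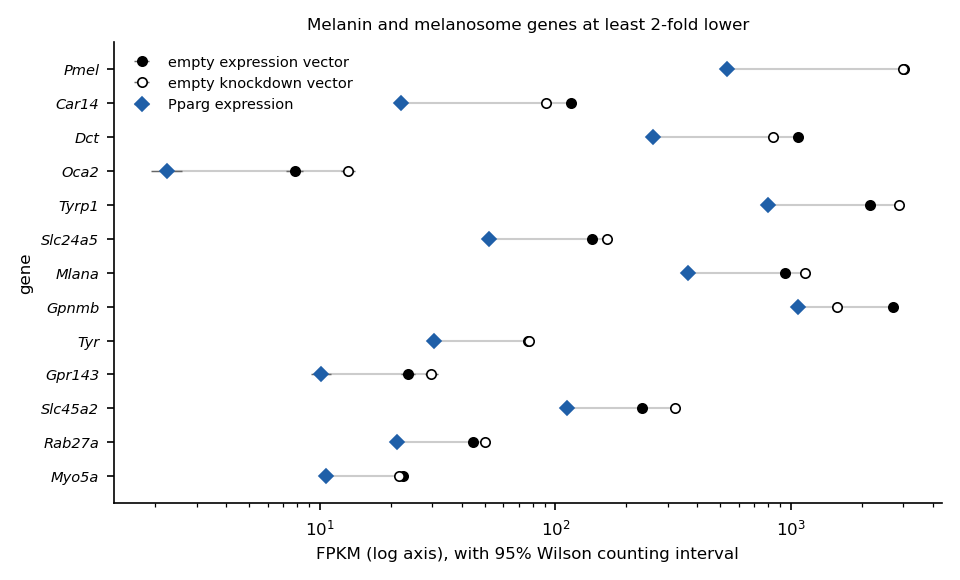
For each melanin and melanosome gene at least 2-fold lower with Pparg expression, points show the FPKM on a log axis in the Pparg expression library (blue diamonds), the empty expression vector (black) and the empty knockdown vector (white), with 95% Wilson counting intervals, mostly smaller than the points. The diamond lies left of both circles for each of the 13 genes, from Pmel at 536 against 3014 down to Myo5a at 10.6 against 22.5.

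The regulators of the melanocyte programme were less uniform, with 3 of 18 compared at least 2-fold higher, 3 lower (4.75% and 2.58% of all genes were) and a median log2 ratio of -0.60. Mc1r, the receptor for melanocyte-stimulating hormone, stood at 18.04 against 59.9 and 40.8 (3.32-fold lower, interval 3.11 to 3.55). The growth factor receptors Met (41.7 against 128 and 126) and Erbb3 (3.27 against 11.1 and 6.90) were lower too, Erbb3 not by 2-fold against the second control. Mitf itself was at 16.7 against 28.7 and 41.6, a log2 ratio of -0.75, short of the limit against the first control and past it against the second (-1.27). Sox10, which acts above Mitf, was at 185 against 278 and 244. The higher genes were Id3, an inhibitor of helix-loop-helix factors, at 34.7 against 2.15 and 2.44 (16.1-fold to the control, interval 12.5 to 21.1), its relative Id1 at 2.83 against 0.792, and the proteoglycan gene Bcan at 21.4 against 3.66 and 2.09. Id1 missed the limit against the second control (1.03). Id3 was also high with Myod1 expression (55.5) and Setdb1 knockdown (28.3).

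Many interferon response genes were higher. Of 54 compared, 32 were at least 2-fold higher (4.75% of all genes were) and 0 lower, 52 had a ratio above 0 (45.2% of all genes) and the median log2 ratio was 1.34. The second control bears on this count. Between the 2 controls 7 of these genes were at least 2-fold higher in the empty knockdown vector library, against which the median was 0.92 and 24 genes passed the limit; 23 passed it against both. Of the 54 genes, 19 had an FPKM under 1 in the control and entered only through the Pparg expression library. Of the other 35, 22 were higher. The summed FPKM of the whole list was 1101 with Pparg expression, 499 in the control and 550 in the second control. It was 458 with Myod1 expression and 880 with Setdb1 knockdown.

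Members fell into those high in the second control as well and those that were not. Ifit1, an antiviral RNA-binding protein, had an FPKM of 10.9 with Pparg expression and 0.691 in the control, but 7.07 in the second control. The ubiquitin-like Isg15 stood at 40.1 against 4.94 and 17.96, and the chemokine Ccl5 at 16.8 against 1.59 and 12.4. For these 3 the controls did not lie together. The immunity-related GTPases Irgm2 (13.4 against 1.53 and 1.28) and Igtp (10.8 against 1.24 and 0.621), the guanylate-binding protein gene Gbp2 (9.27 against 0.706 and 2.21) and Usp18 (10.6 against 1.799 and 0.986) were above both controls. So were the membrane protein gene Ifitm3 (242 against 83.5 and 79.4) and Irf1 (12.7 against 4.77 and 3.46). Ifnb1, a gene for interferon itself, had 0 reads, and the receptor genes Ifnar1 (12.2 against 13.9) and Ifnar2 (8.57 against 7.36) were near the control. Several of these families (Ifit, Gbp, Oas and the Irgm group) hold near-identical copies, so their values are uncertain: the treatment of reads that fit several genes is not given in the sources used here.

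**Figure D4:**
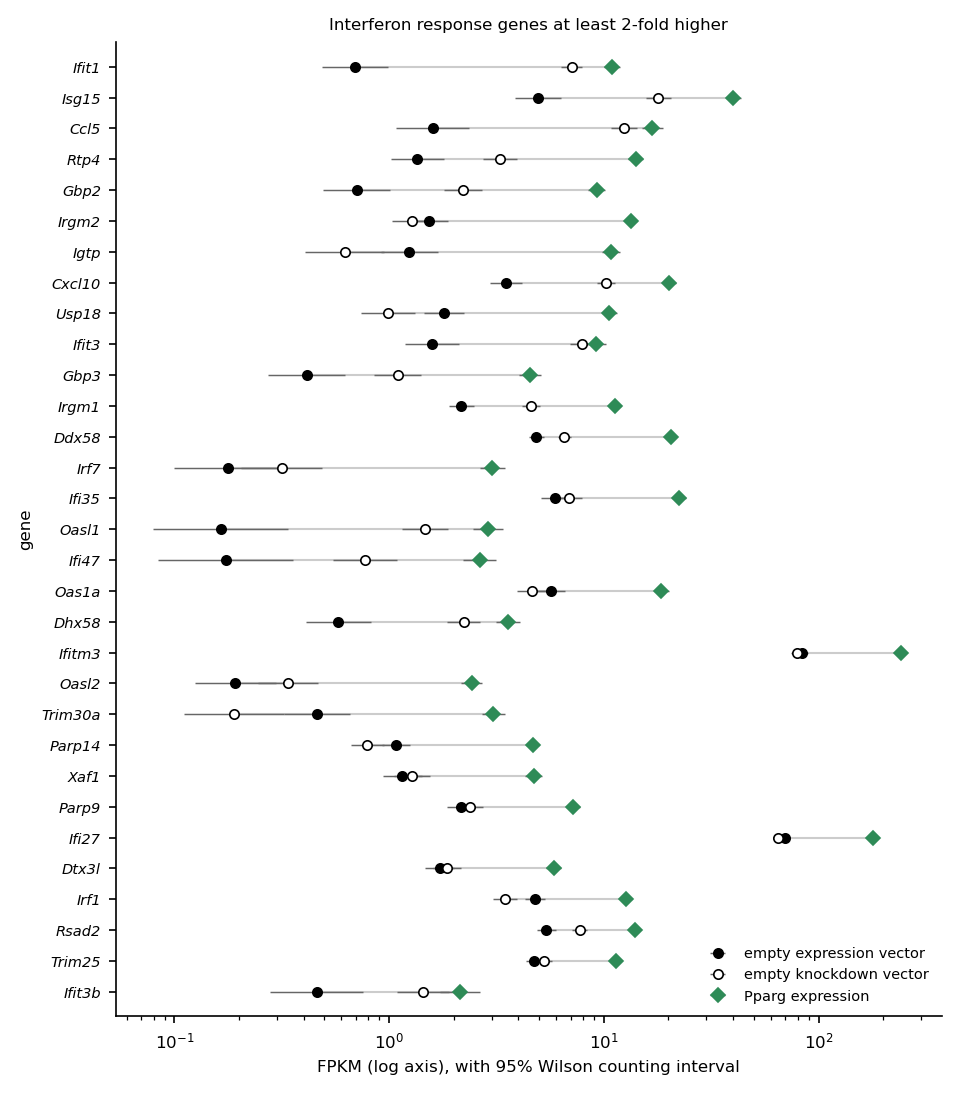
For interferon response genes at least 2-fold higher with Pparg expression, all but 1 of the 32, points show the FPKM on a log axis in the Pparg expression library (green diamonds), the empty expression vector (black) and the empty knockdown vector (white), with 95% Wilson counting intervals. For Ifit1, Ccl5 and Ifit3 the white point lies near the diamond, while for Ifitm3 and Ifi27 both circles lie together well to its left.

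Genes of MHC class I antigen presentation, many of which respond to interferon, were also higher. Of 17 compared, 9 were at least 2-fold higher (4.75% of all genes were), all 9 against both controls (3.76%), and 1 was lower; the median log2 ratio was 1.04. Of the 14 with a control FPKM of at least 1, 7 were higher. Here the second control lay below the first, with a median of -0.20 between them. Tapbp, tapasin, stood at 56.4 against 13.2 and 12.2, the peptide transporter subunits Tap1 at 5.28 against 1.07 and Tap2 at 4.62 against 0.421, and the immunoproteasome subunit Psmb10 at 34.6 against 8.37. The light chain gene B2m was at 400 against 194 and 169, and the heavy chain gene H2-D1 at 119 against 55.7. H2-K1, at 41.2, was above the control (23.9) and the second control (6.33) and below the Myod1 expression library (92.3). The lower gene was Calr, a general chaperone of the endoplasmic reticulum, at 220 against 473, and it missed the limit against the second control (357). Heavy chain genes are close copies, so their values are uncertain in the same way.

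Nuclear-encoded genes of the respiratory chain and mitochondrial import differed little but in the same direction. Of 45 compared, 0 passed the 2-fold limit, where 4.75% of all genes were higher and 2.58% lower. A ratio above 0 was found for 43 (45.2% of all genes), and the median log2 ratio was 0.42. Cox4i1 stood at 503 against 282 and 230, and Cox6a1 at 750 against 429 and 270. The regulators Tfam (9.99 against 9.30) and Nrf1 (5.47 against 7.23) were near or below the control. Among 26 peroxisome genes 2 were at least 2-fold higher, a share of 7.69% that is near the 4.75% of all genes. These were Pex11a and Ech1 (101 against 39.0), and the median was 0.22; catalase (Cat) was at 50.3 against 27.8.

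Few cell cycle genes passed the limit. Of the 47 DNA replication genes 0 passed the limit in either direction, with a median log2 ratio of -0.20. Of the 45 mitosis genes 1 was lower (2.22%) and 0 higher, with a median of -0.40. Of all genes 4.75% were higher and 2.58% lower, so the share of lower mitosis genes was near that of all genes. Below 0 were 40 of these 45 mitosis genes and 31 of the 47 replication genes, against 54.8% of all genes. The lower mitosis gene was Mki67, the proliferation marker, at 11.9 against 33.5 in the control but 12.6 in the second control. Among cell cycle inhibitors and D-type cyclins, 2 of 10 were higher (4.75% of all genes were), 1 of them against both controls. Rb1, the retinoblastoma gene, stood at 8.20 against 2.37 and 2.75 (3.46-fold, interval 2.99 to 4.01) and Ccnd3 at 74.97 against 36.4 and 50.1, which missed the limit against the second control. Cdkn1a, which encodes p21, was at 179 against 119 and 119.

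**Figure D5:**
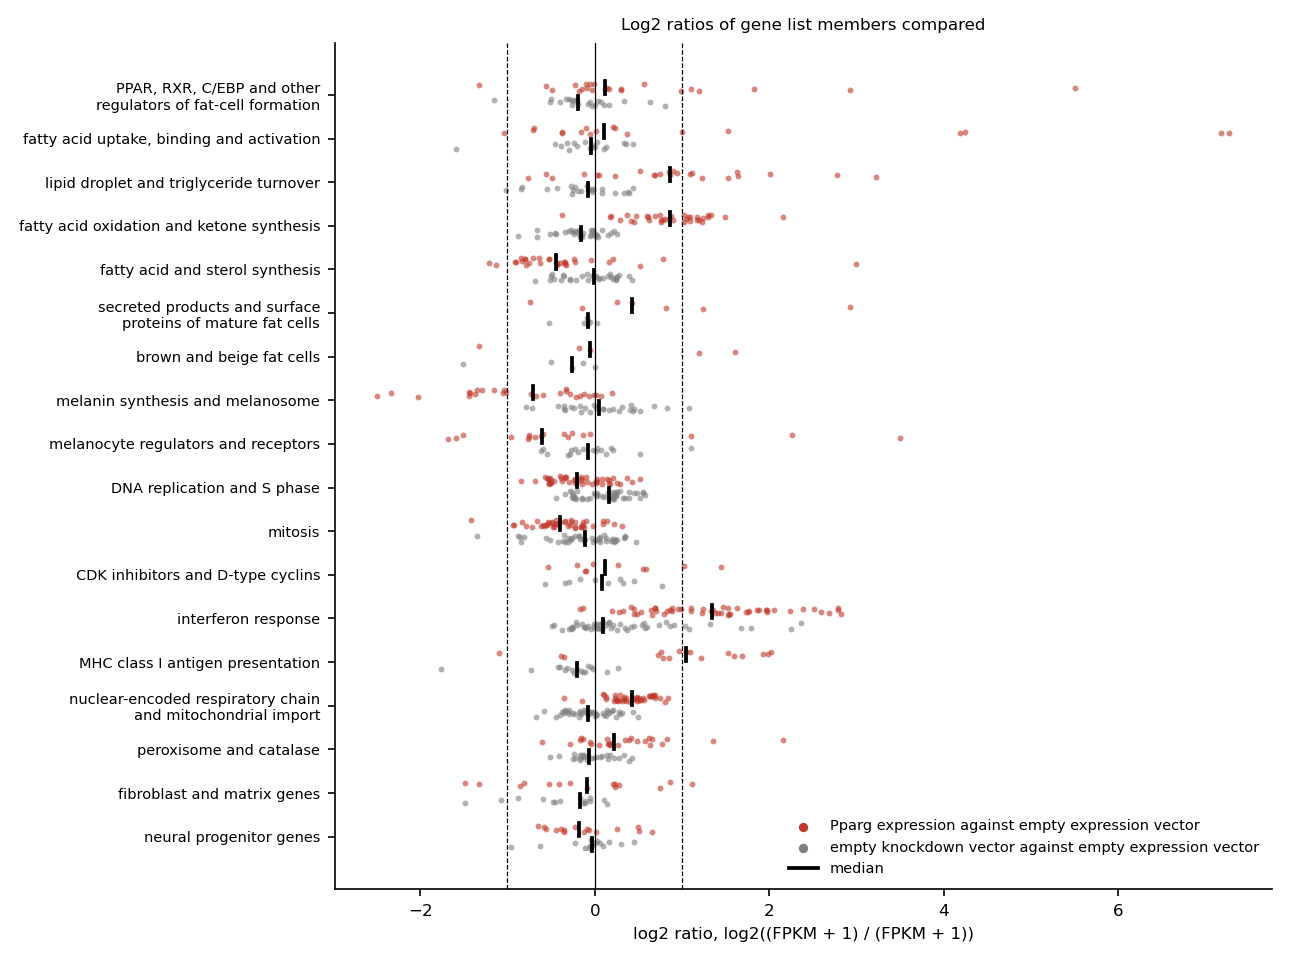
Each row is a list with at least 5 genes compared; red points are log2 ratios of its members with Pparg expression and grey points those of the empty knockdown vector, both against the empty expression vector, with the median as a black bar and dashed lines at 2-fold. Interferon, MHC class I, droplet and oxidation medians lie between 0.86 and 1.34 and the melanosome median at -0.70. The grey medians lie between -0.27 (brown and beige fat cells) and 0.16 (DNA replication).

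Markers of other cell types were examined for each library. Their counts are to be read against all genes compared, of which 4.75% were at least 2-fold higher and 2.58% lower. Lists with 2 or 3 genes compared are too small for a share to be read. Among 16 endothelial markers 3 were compared and 1, Plvap (3.68 against 1.08), was higher, while Cdh5 and Kdr had 0 reads. Among 19 macrophage and leukocyte markers 2 were compared and 1, Cd68, was lower than the control, at 1.87 against 12.2, and missed the limit against the second control (3.996); Ptprc and Csf1r had 0 reads with Pparg expression, and the summed FPKM of the list was 3.01 against 14.5 and 6.63. Among 20 skeletal muscle markers 2 were compared and 1, Mylpf, was higher, at 17.6 against 7.61 and 5.74 (9518 with Myod1 expression). Des was at 12.9 against 6.20 and 4.75. At low counts Myl1 had 31 reads against 0 and 0 and Acta1 25 against 2 and 0. Tnnt3 had 27 against 4 and 7 and Tnni1 14 against 1 and 5. Others were level with the controls, with Myh3 at 16 reads against 16 and 15 and Actc1 at 1 against 0 and 1. Myog, Myod1 and Mymk had 0 reads, and the part of these traces in other results was not tested. Among 30 fibroblast and matrix genes 15 were compared, 1 was higher, Sparc at 649 against 299 and 330, and 2 were lower, Pdgfrb at 2.90 against 9.90 and 4.95 and S100a6 at 6.49 against 17.7 and 5.69. None of these 3 passed the limit against the second control, where S100a6 was slightly higher. Of the neural progenitor genes, 16 were compared and 0 passed the limit.

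The 20 highest genes by log2 ratio against the control, among those with at least 20 reads that also passed against the second control, included several outside these lists. Sncg, γ-synuclein, which fat cells are known to express, stood at 52.2 against 1.65 and 0.421. Mest, an imprinted gene linked to fat-cell size, stood at 59.3 against 2.39 and 6.88. Sod3, extracellular superoxide dismutase, was at 33.4 against 1.15 and 2.78, though it reached 42.6 with Myod1 expression. Pcx, pyruvate carboxylase, which feeds lipogenesis, stood at 80.7 against 7.43 and 5.31 and was at most 15.4 in the other libraries. Igfbp7 (18.04 against 0.405), Cbr2 (20.8 against 0.784) and Tgm2 (20.4 against 1.33) belong to the same group. Among the 20 lowest genes were Slc7a5, a large neutral amino acid transporter (43.0 against 193 and 100), the gap junction gene Gjb2 (7.44 against 38.6 and 56.2) and Aebp1 (39.7 against 184 and 133).

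Beyond Pparg and Fabp4, some genes were seen almost only with Pparg expression. In all, 23 genes had an FPKM of at least 1 and at least 20 reads in that library and at most 3 reads in each of the others, compared with 0 such genes in either control and 209 in the Myod1 expression library. Ephx2, soluble epoxide hydrolase, had 161 reads (FPKM 3.38) and 0 reads in each of the other 4, and so did Rarres2, the secreted protein chemerin (95 reads, FPKM 1.87). Ubd, a ubiquitin-like protein gene that responds to interferon, had 106 reads, Itgad, an integrin subunit, 205 reads and Trem2 95 reads, again against 0 in each of the others. At these levels a 0 allows up to 3 reads, so each is at least 27.0-fold above the control at its floor.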

How the data were processed

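RNA was sequenced from 5 B16F10 cultures, 1 library each. The authors deposited FPKM values per gene, and per the submitters' processing notes CASAVA, HISAT2, featureCounts 1.5.0-p3 and the build GRCm38 were used, with no roles given. The treatment of strand and shared reads and the scaling between libraries are not given in the sources used here. Multiplied by gene length, 100% of the values were whole multiples of 1 step per library (tolerance 0.05), which gave back whole reads; the authors' divisor was 0.859 to 1.10 times their total. The count test was not run on these reads, since no group has a replicate. Gene identifiers, positions and biotypes are those of the deposited table, per the file headers.

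The comparison took every gene that reached an FPKM of 1 in either library, with a pseudocount of 1 and a limit of 2-fold. Ratios to 0 reads used a floor of 3 reads. The 21 gene lists have 649 entries, of which 4 were not found by symbol. The members and lists were chosen with earlier results of these data known. Named are Pparg, list members, and the 20 highest and 20 lowest log2 ratios among genes with a symbol and at least 20 reads in the higher library that passed 2-fold against both controls. Genes seen almost only with Pparg expression, genes at the limit and 4 further lists were chosen after their values were seen. Alternatives were a pseudocount of 0.1, other filters on low values, a 4-fold limit, other scalings, the other control or both, and protein-coding genes; GC and length trends and the 3-read floor were added after seeing the data. Scripts used Python 3.11.15, pandas 2.3.3, numpy 2.4.6 and scipy 1.17.1, and read recovery was tested on simulated data. Values of some list members and named genes are not reported here, though the counts include them.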

Additional observations from a re-analysis of the deposited data

How the results depend on the processing

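No paired analysis was possible because each group has 1 library. The log2 ratio of Pparg, 5.51, became 8.80 with a pseudocount of 0.1 and 9.48 with values under 3 reads set to 3 reads. The count of higher genes, 542, became 894 and 891 under these settings and 91 with a 4-fold limit. The count of lower genes, 295, became 497 and 476 under the same settings, 23 with a 4-fold limit, 109 when a difference against both controls was required and 189 for protein-coding genes alone. With a 4-fold limit 3 melanosome genes remained counted as lower and 9 interferon genes as higher. The share of higher genes among those past the limit was 64.8%, and 79.8% with a 4-fold limit, 79.7% against both controls and 66.9% to 72.2% under the 3 other scalings. With the empty knockdown vector as control, mt-Nd4l (0.40) and S100a6 (0.16) turned from lower to slightly higher. The cause of these differences was not tested, apart from the smaller number of genes that a stricter limit or fewer genes leave. Other values of single genes were counted once per gene and setting, so a gene can be counted several times. Of these, 382 moved by more than their counting interval without a change of direction, and 968 were counted as the same. Depth limits genes under about 3 reads, for which a 0 is no sign of absence.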

Other observations

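Several gene groups outside the report were put together after their values were seen and are given as values. Of 21 acute-phase and inflammatory products 11 were compared, and all 11 were at least 2-fold higher with Pparg expression (4.75% of all genes were), but 7 of them entered only because they were high there. Of the 10 not compared, 5 had 0 reads with Pparg expression. Cp, the plasma copper protein ceruloplasmin, had FPKM values of 61.6 with Pparg expression, 5.84 and 4.70 in the controls. Cxcl1, a chemokine, stood at 16.8 against 1.83 and 0, Lcn2, a lipocalin, at 3.54 against 0 and 0, and C3, the complement component, at 2.16 against 0.0238 and 0. Il1b had 0 reads. Glutathione transferases went in both directions: Mgst1 stood at 71.2 against 5.87 and 5.97, Gstt1 at 15.3 against 0.801 and Gstt3 at 18.6 against 3.08, whereas Gsta4 was at 2.76 against 14.5 and 10.6 and Gstp1 at 379 against 935 and 676. Close copies within these families may share reads.

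Of the 13 proteins encoded by the mitochondrial genome 11 had lower values than in the control (54.8% of all genes did). At least 2-fold lower were 3 (2.58% of all genes were), 0 of them against both controls (0.954% of all genes). Values were lower for genes such as mt-Co1 at 4387 against 6170 and mt-Cytb at 2100.1 against 3479. The exception in size was mt-Co3, at 309 against 28.5 and 48.1, which was also high in the Myod1 expression library (264). Of 14 histone genes compared, which encode mostly transcripts without a poly(A) tail, 9 were at least 2-fold higher (4.75% of all genes were), 7 of them against both controls. A further 53 listed histone genes were not compared, 6 of the 14 entered only through the Pparg expression library, and 3 of the other 8 were higher. Hist1h1c stood at 62.8 against 11.3 and 19.0, and at 211 with Setdb1 knockdown. Of the 77 loci without a symbol that were compared, 16 were at least 2-fold higher and 3 lower, where 4.75% and 2.58% of all genes were.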
